A study of Homo sapiens with 24 samples.

Results

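The addition of IACS-010759 to low-dose sorafenib was examined in HuCCT1 cells, as 3 libraries of the combination against 3 libraries of 1.25 µM sorafenib, so 6 of the 24 libraries of the series, chosen by their labels and compared across all genes. HuCCT1 is a human cell line from an intrahepatic cholangiocarcinoma, a cancer of the bile ducts inside the liver, and was grown in RPMI-1640 with serum. Combination cells received 1.25 µM sorafenib with 1 µM IACS-010759 for 72 h, and the cells they are set against received 1.25 µM sorafenib alone for 72 h, so both arms carry the kinase inhibitor and differ in IACS-010759. The 2 other HuCCT1 arms, also collected at 72 h, were 10 µM sorafenib and vehicle, which was DMSO at no more than 0.1%. The same 4 arms were run in OCUG-1, a second biliary tract cancer line that was grown in DMEM. Each arm had 3 biological replicates. IACS-010759 was never given without sorafenib, so its values hold only on top of the low dose, and HuCCT1 is a single line.

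Sorafenib inhibits several kinases, among them RAF kinases and the VEGF receptors. IACS-010759 inhibits complex I of the mitochondrial respiratory chain, the enzyme that takes electrons from NADH and passes them to ubiquinone while pumping protons. Mammalian cells keep a second system that the results below turn on: RNA and DNA sensors in the cytosol switch on type I and type III interferons, whose receptors signal through JAK kinases to a complex of STAT proteins and IRF9, which binds the interferon-stimulated response element in the promoters of many antiviral genes. Many tumour cell lines hold part of this programme on without any virus. RNA and DNA that leave the mitochondrion are among the known ligands of the sensors.

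The letters of the response element are shown here because some of the genes with the largest falls carry them. The motif searched was GAAANNGAA on both strands, in RefSeq promoter windows of GRCh38.p14 that run from 250 bases before to 50 bases after the gene's start, and the capitals mark its matches. The windows printed are those of the 4 antiviral effectors with the largest falls among those that hold the motif, 5′ to 3′ on the gene's strand.
RSAD2 (chr2:6865635-6865934, + strand): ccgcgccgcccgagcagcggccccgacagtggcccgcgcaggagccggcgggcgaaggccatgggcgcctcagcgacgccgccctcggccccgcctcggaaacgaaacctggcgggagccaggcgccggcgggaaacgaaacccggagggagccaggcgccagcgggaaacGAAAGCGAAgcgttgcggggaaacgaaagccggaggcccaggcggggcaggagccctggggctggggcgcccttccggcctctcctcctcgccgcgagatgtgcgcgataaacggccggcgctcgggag
IFI6 (chr1:27672143-27672442, - strand): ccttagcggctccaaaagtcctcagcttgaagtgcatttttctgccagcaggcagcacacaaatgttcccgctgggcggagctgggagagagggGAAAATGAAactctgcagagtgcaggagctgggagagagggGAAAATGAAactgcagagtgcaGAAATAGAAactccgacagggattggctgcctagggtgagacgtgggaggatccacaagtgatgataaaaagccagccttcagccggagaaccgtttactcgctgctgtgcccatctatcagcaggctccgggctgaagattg
IFI44L (chr1:78620198-78620497, + strand): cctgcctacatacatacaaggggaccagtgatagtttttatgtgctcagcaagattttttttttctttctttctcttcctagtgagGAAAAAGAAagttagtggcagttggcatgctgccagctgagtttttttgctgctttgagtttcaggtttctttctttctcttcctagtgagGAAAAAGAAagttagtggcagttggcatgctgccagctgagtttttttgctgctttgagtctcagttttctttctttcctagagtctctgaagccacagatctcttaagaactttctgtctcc
MX1 (chr21:41420308-41420607, + strand): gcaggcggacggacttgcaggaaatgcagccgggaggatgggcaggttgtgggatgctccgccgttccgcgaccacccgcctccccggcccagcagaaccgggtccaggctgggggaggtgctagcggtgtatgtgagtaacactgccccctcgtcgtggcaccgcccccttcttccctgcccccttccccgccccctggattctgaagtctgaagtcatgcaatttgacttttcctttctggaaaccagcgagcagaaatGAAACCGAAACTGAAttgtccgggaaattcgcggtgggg
RSAD2 had 1 match, IFI6 had 3, IFI44L had 2 and MX1 had 2 that overlap each other, all on the gene's own strand. The match of RSAD2 began 79 bases before the start, those of IFI44L 164 and 73 bases before it, and those of MX1 11 and 17 bases after it. The window of CMPK2, with the second largest fall among the antiviral effectors, held no match. MX2 and OASL had no window and were not searched. Among antiviral effector genes with a window, 27 of 38 (71.1%) held the motif, and 5 of 8 ISG15 and PARP genes (62.5%) did. Over all windows the share was 8.29% (2264 of 27305), over tested genes 6.69%, over genes that fell 12.6%, over genes that fell at least 2-fold 32.6% (47 of 144), and over genes that rose 4.73%. A match is a run of letters in a window and not evidence of binding.

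Total counts were 24683342 to 30693736 per library in the combination and 18238834 to 28036008 at 1.25 µM. Of the 14 biliary epithelial markers, 11 exceeded 10 CPM (counts scaled per-million of the library), led by KRT7 at 4695 CPM. Their summed level was 10510 to 10900 CPM in the combination and 10960 to 11580 CPM at 1.25 µM. Of 10 hepatocyte markers only SERPINA1 exceeded 10 CPM and APOB was at 0, 2 of 10 fibroblast markers exceeded 10 CPM with COL1A2 at 0, and no endothelial or immune marker exceeded 10 CPM. Replicate 3 of 1.25 µM sorafenib stood apart: the chi-square per degree of freedom of its counts against the other replicates of its arm was 50.6 and 37.6, against 5.45 between those other replicates and 4.42 to 9.02 between combination replicates. Its mitochondrial share of counts was 12.5%, against 21.8% and 19.4% in replicates 1 and 2. In vehicle, replicate 3 was also the lowest of its arm, with 7.08% against 11.8% and 14.1%. At 10 µM replicate 3 had 8.32% against 9.72% and 11.6%, while in the combination replicate 3 was not the lowest. Many counts of calls, and the difference in this share, are also given without replicate 3 of 1.25 µM. Fold changes of this contrast and their standard errors are given with it only.

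Of 19576 tested genes, 2276 (11.6%) were called at an adjusted p under 0.05 by edgeR's quasi-likelihood test with Benjamini-Hochberg adjustment. Of these, 990 (5.06% of tested genes) rose and 1286 (6.57%) fell in the combination. At 2-fold or more 516 genes were called (2.64%), of which 217 rose (1.11% of tested genes) and 299 fell (1.53%). Protein-coding genes made up 810 of the rises and 1093 of the falls. All 3 combination libraries lay below all 3 of 1.25 µM for 3557 tested genes (18.2%) and above them for 3389 (17.3%). The median log2 fold change of all tested genes was 0.0016. Scaling by library size alone moved that median to 0.188 and the calls to 2601 rises and 555 falls, so 82.4% of calls were rises in place of 43.5%, and with no filter on low counts the share was 57.5%. Without replicate 3 of 1.25 µM sorafenib 3224 genes were called, and without any other single library 877 to 1097. At 2-fold or more these counts were 756 and 270 to 331. Named genes below kept their call under each of the 14 alternative settings, libraries left out in turn included, unless another number or a library is given beside them.

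**Figure D1:**
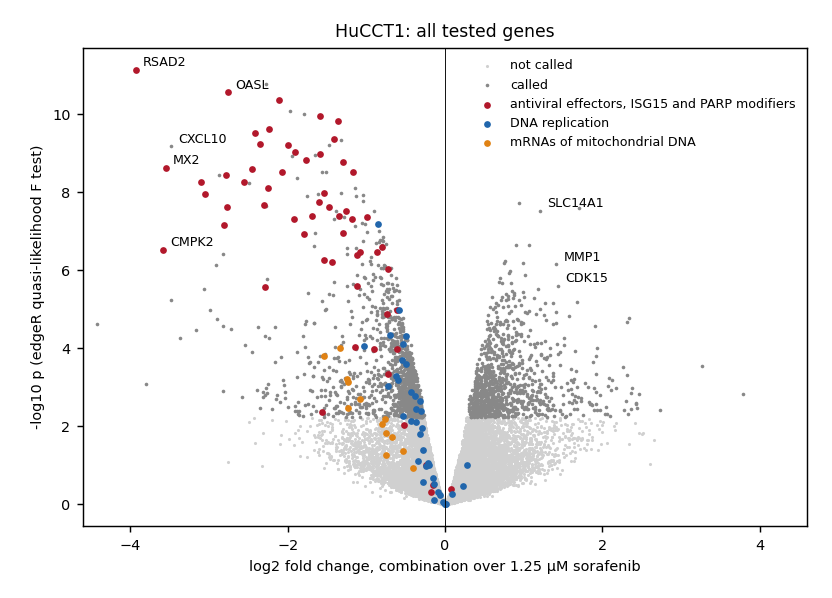
Log2 fold change of the combination over 1.25 µM sorafenib (horizontal axis) against the negative log10 of the unadjusted edgeR p (vertical axis) for the 19576 tested HuCCT1 genes, 1 point per gene, with antiviral, ISG15 and PARP genes, DNA replication genes and mRNAs of mitochondrial DNA in colour. The antiviral group lies on the left, with RSAD2 at -3.93, and no coloured antiviral gene is among the 990 that rose.

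The largest falls were antiviral genes. Among called protein-coding genes with at least 10 CPM in the higher arm and arms that did not overlap, the 12 largest falls were RSAD2, CMPK2, MX2, CXCL10, IFI6, IFI44L, USP18, MX1, IFIT1, ISG15, OASL and IFITM1, each known to be induced by interferon. RSAD2, the radical-SAM enzyme viperin that makes a chain-terminating nucleotide, had 3.06, 2.00 and 2.46 CPM in the combination, against 37.5, 36.1 and 42.5 CPM at 1.25 µM. Every combination library lay below every 1.25 µM library by an order of magnitude. The fall was 15.3-fold, a log2 fold change of -3.93 (SE 0.223, edgeR adjusted p = 1.4e-07). CMPK2, a mitochondrial nucleotide kinase, had 2.43, 2.35 and 2.96 CPM in the combination and 28.1, 31.9 and 32.5 CPM at 1.25 µM, a log2 fold change of -3.58 (SE 0.365, edgeR adjusted p = 6.53e-05). The arms were again far apart, but RSAD2 (2:6865806-6898239, + strand) and CMPK2 (2:6840570-6866635, - strand, both in GENCODE 29 on GRCh38) overlap at their starts, and no source used here gives the counting strand, so some reads of the pair may be shared.

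MX2, a GTPase that acts at the nuclear pore, had 17, 14.7 and 20.8 CPM in the combination and 191, 203 and 222 CPM at 1.25 µM, a log2 fold change of -3.55 (SE 0.256, edgeR adjusted p = 1.98e-06). Its neighbour MX1, the cytosolic dynamin-like GTPase, had 93.2, 78.5 and 101 CPM in the combination and 573, 580 and 749 CPM at 1.25 µM, a log2 fold change of -2.80 (SE 0.263, edgeR adjusted p = 2.07e-05). Neither gene's arms overlapped, as the rule that picked them required. IFI6, an inhibitor of viral replication in ER membranes, had 60.3, 44.7 and 54.8 CPM in the combination and 428, 395 and 552 CPM at 1.25 µM, an 8.6-fold difference. IFI44L had 37.5, 24.1 and 38.1 CPM in the combination and 266, 278 and 280 CPM at 1.25 µM, an 8.27-fold difference. The lowest combination value of both was in replicate 2, and the highest was far below every 1.25 µM value.

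IFIT1, which binds RNA with an incompletely methylated cap, had 94.6, 78.4 and 81.7 CPM in the combination and 569, 584 and 595 CPM at 1.25 µM, a 6.86-fold difference. ISG15, the ubiquitin-like protein attached to other proteins in this response, had 125, 96.8 and 112 CPM in the combination and 899, 791 and 582 CPM at 1.25 µM, a 6.81-fold difference. Replicate 3 of 1.25 µM was the lowest of its arm for ISG15 and still far above the combination. USP18 removes ISG15 from proteins and blocks the interferon receptor, and it had 4.55, 4.32 and 4.92 CPM in the combination and 28.9, 31.6 and 40.6 CPM at 1.25 µM. OASL, which binds RIG-I, had 9.66, 6.67 and 7.18 CPM in the combination and 57.5, 53.3 and 49.2 CPM at 1.25 µM. IFITM1, a membrane protein that blocks viral fusion, had 62.4, 43.7 and 56.3 CPM in the combination and 314, 349 and 290 CPM at 1.25 µM, and reads of its close copies IFITM2 and IFITM3 may be split among them. CXCL10, a chemokine that draws T cells, had 1.29, 0.81 and 0.807 CPM in the combination and 9.65, 12.4 and 10.9 CPM at 1.25 µM, an 11.1-fold difference. In all 12 genes the 3 combination libraries were the lowest of the 6, which the rule that picked them required.

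Levels in the other arms put these falls against untreated cells. The comparisons of the combination with vehicle and of 1.25 µM with vehicle share the vehicle libraries, and each shares its treated libraries with the comparison above. RSAD2 averaged 31.3 CPM in vehicle. Its log2 fold change was -3.63 for the combination over vehicle (edgeR adjusted p = 2.11e-07) and 0.30 for 1.25 µM over vehicle (edgeR adjusted p = 0.274). MX1 averaged 641 CPM in vehicle, and its log2 fold changes were -2.82 for the combination over vehicle and -0.02 for 1.25 µM over vehicle (edgeR adjusted p = 0.972). ISG15 averaged 497 CPM in vehicle, with -2.16 for the combination and 0.61 for 1.25 µM (edgeR adjusted p = 0.0816). For CXCL10 and OASL the 1.25 µM arm was itself above vehicle, with log2 fold changes of 1.04 (edgeR adjusted p = 0.00626) and 0.80 (edgeR adjusted p = 0.00321), while those of the combination over vehicle were -2.44 and -1.96. At 10 µM sorafenib, without IACS-010759, the means were 8.19 CPM for RSAD2, 180 CPM for MX1 and 132 CPM for ISG15. Replicate 3 of 10 µM was the lowest of its arm for each, at 5.27, 95.4 and 85.3 CPM in that order. So the combination was below vehicle, and not only below the low dose, for these 5 genes. Against vehicle, 43 of 49 tested antiviral effectors fell and 2 rose in the combination, where 10.1% of all genes fell and 9.94% rose. At 1.25 µM against vehicle 1 fell and 8 rose, where 8.50% of all genes fell and 9.98% rose.

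**Figure D2:**
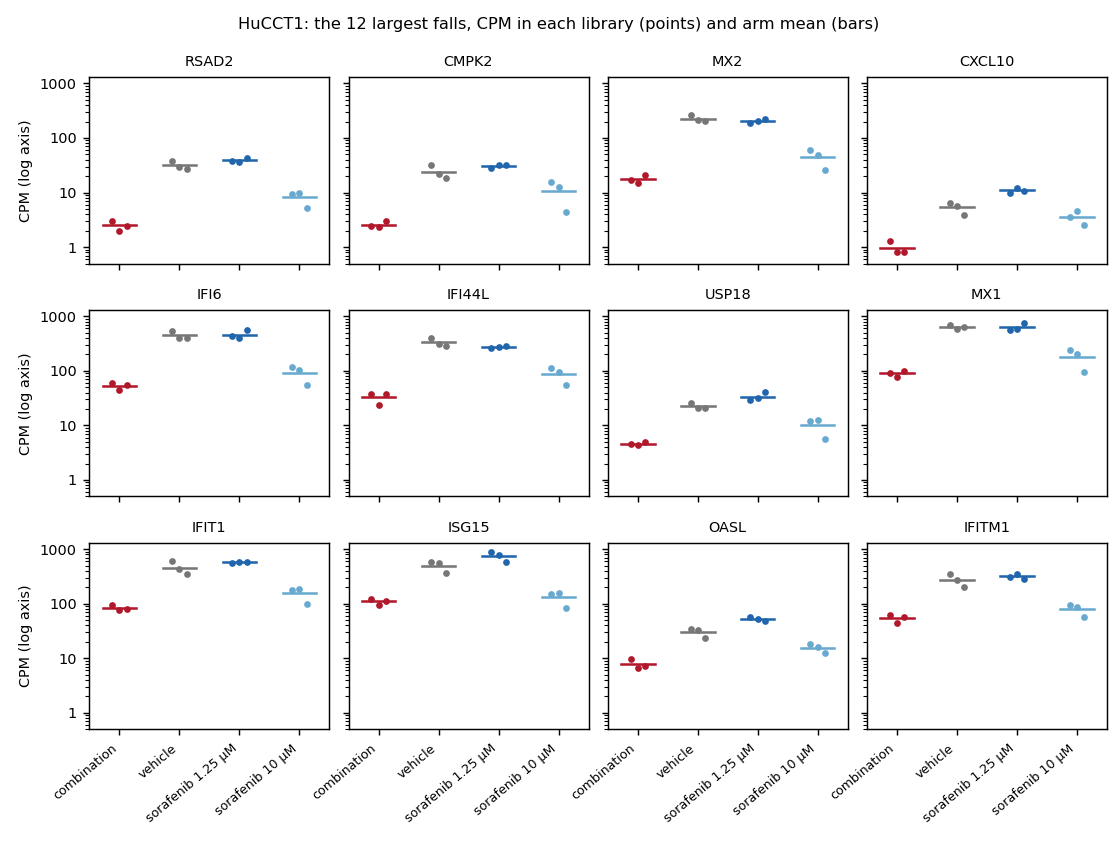
CPM on a log axis for the 12 largest falls in the HuCCT1 arms, with 1 point per library and a bar at the arm mean, in the order combination, vehicle, 1.25 µM and 10 µM sorafenib. The combination points lie below all vehicle and 1.25 µM points in each panel, such as 2.00 to 3.06 CPM for RSAD2 against 36.1 to 42.5 CPM at 1.25 µM. For 1.25 µM the rule that picked the genes required this.

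At the top of the pathway, the type III interferon genes and IFNB1 were near the floor of detection. IFNL1, a type III interferon, had 1, 5 and 2 counts in the combination and 13, 31 and 19 counts at 1.25 µM. IFNL2 had 2, 5 and 1 counts in the combination and 22, 14 and 15 counts at 1.25 µM, and its near-identical neighbour IFNL3 had 4, 2 and 3 counts in the combination and 13, 17 and 16 counts at 1.25 µM. All 3 genes were lower in every combination library and fell, with log2 fold changes of -3.37 for IFNL1, -3.16 for IFNL2 and -2.82 for IFNL3 (edgeR adjusted p = 0.00274, 0.00198 and 0.00169 in that order). DESeq2's filter left these 3 genes without a value, so they were followed under 13 alternatives. IFNB1, a type I interferon, had 3, 1 and 0 counts in the combination and 9, 7 and 12 counts at 1.25 µM and was below the filter for testing. IFNE, a type I interferon of epithelia, was well above that floor, with 11.3, 8.68 and 10.7 CPM in the combination and 34.4, 32.5 and 17.8 CPM at 1.25 µM. Its arms did not overlap, and it fell with a log2 fold change of -1.46 (SE 0.36, edgeR adjusted p = 0.0227), but it kept this call in 8 of 14 alternatives, losing it with no filter on low counts and without any library other than replicate 3 of 1.25 µM. The receptor chains were not called, with log2 fold changes of 0.12 for IFNAR1, 0.72 for IFNAR2, 0.05 for IFNLR1 and 0.75 for IL10RB.

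Of the 14 tested sensors and adaptors 9 fell and none rose, where 6.57% of all tested genes fell and 5.06% rose. The median log2 fold change of the group was -0.86. The count was 8 to 10 when each library was left out and 10 without replicate 3 of 1.25 µM. ZBP1, a sensor of Z-form nucleic acids, had 14.1, 11 and 13.7 CPM in the combination and 56.1, 47.9 and 39.5 CPM at 1.25 µM, a log2 fold change of -1.88 (SE 0.167, edgeR adjusted p = 2.7e-06). IFIH1, the long double-stranded RNA sensor MDA5, had 39.0, 32.2 and 40.6 CPM in the combination and 101, 106 and 124 CPM at 1.25 µM, a log2 fold change of -1.56 (SE 0.135, edgeR adjusted p = 2.14e-06). Arms were separate for both sensors. RIGI, the sensor of short RNA ends, fell by 1.67 on the log2 scale, DHX58 by 1.65, the DNA sensors AIM2 and IFI16 by 1.36 and 1.33, the kinase IKBKE by 0.95 and the endosomal receptor TLR3 by 0.77. The adaptors were not called. MAVS, the mitochondrial adaptor of RIGI and IFIH1, had 158, 154 and 158 CPM in the combination and 172, 171 and 152 CPM at 1.25 µM, and its arms overlapped (edgeR adjusted p = 0.679). STING1, the adaptor of the DNA sensor CGAS, had a log2 fold change of 0.31 and was not called (edgeR adjusted p = 0.11).

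Among the 14 tested STATs and IRFs 5 fell and none rose, where 6.57% of all genes fell. The rest of this group kept the median near 0. IRF7, the factor that amplifies interferon genes, had 57.1, 49.5 and 54.0 CPM in the combination and 223, 218 and 179 CPM at 1.25 µM, a log2 fold change of -1.95 (SE 0.158, edgeR adjusted p = 1.12e-06). The arms of IRF7 were far apart. IRF9 and IRF1 fell by 0.95 and 0.61. STAT2 had a log2 fold change of -0.57 (edgeR adjusted p = 0.00869) and kept its call in 12 of 14 alternatives, losing it without replicate 2 of the combination or by library size alone.

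Of 49 tested antiviral effectors 44 (89.8%) fell and none rose, where 6.57% of all genes fell. Their median log2 fold change was -1.59 beside 0.0016 for all genes. At least 2-fold falls were seen in 38, where 1.53% of all genes fell by this much. Leaving out each library gave 43 to 45 falls, and 43 genes held under all alternatives. At an unadjusted p under 0.05 the edgeR fit had 45 of them lower and 0 higher, and DESeq2 called 45 falls and 0 rises. The 3 synthetases that make 2-5A, a second messenger of the antiviral response, fell together. OAS1 had 65.8, 55.3 and 61.2 CPM in the combination and 324, 322 and 356 CPM at 1.25 µM, and the log2 fold changes were -2.46 for OAS1, -2.36 for OAS2 and -2.42 for OAS3 (edgeR adjusted p = 2.01e-06 for OAS1). IFI27 was the most abundant of the large falls, with 428, 302 and 391 CPM in the combination and 1482, 1414 and 1357 CPM at 1.25 µM. SAMHD1, which destroys nucleotides, fell by 2.00, IFIT3 fell by 2.24 and BST2, which tethers virions, fell by 1.35. EIF2AK2, the RNA-activated kinase PKR, had 97, 99 and 95.1 CPM in the combination and 207, 211 and 217 CPM at 1.25 µM, a log2 fold change of -1.13 (SE 0.139, edgeR adjusted p = 8.66e-05). Among the tested effectors that were not called were 4 APOBEC3 cytidine deaminases, with log2 fold changes that included -0.52 for APOBEC3G and 0.08 for APOBEC3C.

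All 10 genes of the ISG15 and PARP group fell, where 6.57% of all genes fell. The group had a median log2 fold change of -1.39, and 9 of the 10 fell when any library was left out. PARP9 and its partner DTX3L, an ADP-ribosyltransferase and ubiquitin ligase pair, fell by 1.77 and 1.41. DTX3L had 81.8, 83.4 and 82.6 CPM in the combination and 212, 217 and 230 CPM at 1.25 µM, so both arms were tight and far apart. UBA7, the activating enzyme for ISG15, had 60.8, 52.7 and 55.5 CPM in the combination and 108, 103 and 96.5 CPM at 1.25 µM, a log2 fold change of -0.87 (SE 0.105, edgeR adjusted p = 7.41e-05) and the smallest fall of the group. HERC5, the ligase for ISG15, held 0.442, 0.154 and 0.384 CPM in the combination and 0.877, 0.829 and 1.29 CPM at 1.25 µM. It kept its call in 6 of 14 alternatives, and leaving out any 1 of the 6 libraries ended it.

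**Figure D3:**
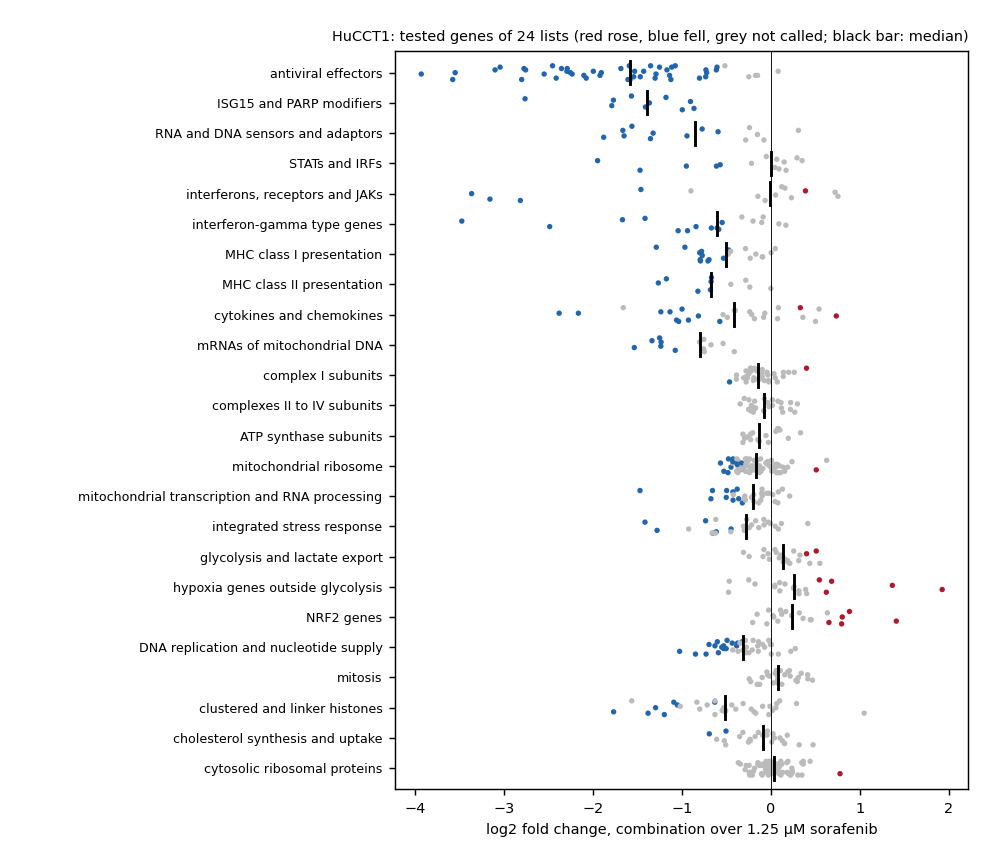
Log2 fold changes of the combination over 1.25 µM sorafenib for the tested members of 24 gene groups, 1 point per gene, with a bar at the group median. Antiviral effectors (median -1.59) and ISG15 and PARP genes (median -1.39) lie furthest to the left, and the mitosis group has a median of 0.07.

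Antigen presentation fell in part, where 6.57% of all genes fell and 5.06% rose. Of 20 tested MHC class I genes 11 fell and none rose, with a median log2 fold change of -0.51, and leaving out a library gave 9 to 11. NLRC5, the transactivator of class I genes, had 16.7, 16.6 and 16.9 CPM in the combination and 45.2, 45.8 and 31.8 CPM at 1.25 µM, a log2 fold change of -1.29 (SE 0.135, edgeR adjusted p = 1.44e-05). The immunoproteasome subunit PSMB9 fell by 0.80, the peptide transporter subunit TAP2 by 0.71 and HLA-F by 0.97. The classical heavy chains HLA-B and HLA-C were not called: HLA-B had 301, 316 and 326 CPM in the combination and 354, 425 and 537 CPM at 1.25 µM (log2 fold change -0.48, edgeR adjusted p = 0.0571), and HLA-C had a log2 fold change of -0.45. B2M, their common light chain, had 441, 484 and 454 CPM in the combination and 379, 473 and 829 CPM at 1.25 µM, so its arms overlapped through the spread at 1.25 µM. Of 10 class II genes 6 fell and none rose, with 4 falls without replicate 3 of the combination or replicate 2 of 1.25 µM. Against vehicle 1 of the 10 fell and 2 rose in the combination, where 10.1% of all genes fell and 9.94% rose. At 1.25 µM against vehicle 6 rose and 0 fell, where 9.98% of all genes rose and 8.50% fell. CD74, the invariant chain, had 375, 349 and 343 CPM in the combination and 637, 694 and 555 CPM at 1.25 µM, a log2 fold change of -0.82 (SE 0.112, edgeR adjusted p = 0.000244). HLA genes are close copies of each other, so counts can be split between them.

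Interferon-gamma type genes and secreted factors followed with mixed directions, where 5.06% of all genes rose and 6.57% fell. Of 17 tested genes of the first group 11 fell and none rose (median log2 fold change -0.61), among them the GTPase GBP1 at -0.84, APOL1 at -0.94 and CXCL11 at -2.49, while the checkpoint ligand CD274 had -0.09 and was not called. Of 27 tested cytokines and chemokines 10 fell and 2 rose, with 1 rise without any library other than replicate 3 of 1.25 µM. IL6 had 53.2, 51.1 and 54.0 CPM in the combination and 118, 125 and 105 CPM at 1.25 µM, a log2 fold change of -1.14 (SE 0.135, edgeR adjusted p = 5.89e-05). LIF, of the same cytokine family, had 60.6, 53.2 and 62.4 CPM in the combination and 124, 118 and 119 CPM at 1.25 µM. Neither cytokine's arms overlapped. The neutrophil chemokine CXCL8 fell by 0.82 and the death ligand TNFSF10 by 1.06. IL1B rose, with 36.9, 40.4 and 33.9 CPM in the combination and 23.9, 22.6 and 20.3 CPM at 1.25 µM (log2 fold change 0.73, SE 0.14, edgeR adjusted p = 0.00336). The complement proteases C1R, C1S and CFB fell by 1.06, 1.04 and 0.99, and CD55, which inhibits complement on the cell's own surface, rose by 0.56. Of 18 NF-kB factors and regulators 2 rose and 3 fell, and none of these held under all alternatives.

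The largest rises were smaller in fold than the largest falls. By the same rule the 12 largest rises were CDK15, MMP1, GRB7, ZNF488, SYT17, SLC14A1, CAPN5, AGR2, SLPI, EPHB3, GCKR and ZC3H6, with log2 fold changes of 1.44 for CDK15 down to 1.09 for ZC3H6. MMP1, the interstitial collagenase, had 94.5, 110 and 116 CPM in the combination and 29.6, 38 and 52.5 CPM at 1.25 µM, a log2 fold change of 1.41 (SE 0.177, edgeR adjusted p = 0.000134). GRB7, an adaptor that binds ERBB receptors, had 34.5, 33.7 and 33.0 CPM in the combination and 12.9, 12.5 and 13.7 CPM at 1.25 µM, a log2 fold change of 1.38 (SE 0.207, edgeR adjusted p = 0.000685). Both rises were clear of every 1.25 µM library, as the rule required. SLC14A1, a urea transporter, had 45.5, 44.5 and 47.2 CPM in the combination and 19.4, 19.9 and 20.3 CPM at 1.25 µM, a log2 fold change of 1.20 (SE 0.122, edgeR adjusted p = 1.07e-05). GRB7 averaged 31.3 CPM at 10 µM sorafenib, from 27.7, 20.4 and 45.7 CPM, and 19.9 CPM in vehicle. MMP1 averaged 27.9 CPM at 10 µM and 32.3 CPM in vehicle. Log2 fold changes of the combination over vehicle were 1.72 for MMP1, 0.76 for GRB7, 0.56 for SLC14A1 and 0.37 for SYT17. Those of 1.25 µM over vehicle were 0.31, -0.62, -0.65 and -0.90 in that order. Thus part of the rise of SLC14A1 and SYT17 was a 1.25 µM level below vehicle (edgeR adjusted p = 0.0023 and 0.00553). For GRB7 that lower level was not called (edgeR adjusted p = 0.0505). ZC3H6 and SLPI were also below vehicle at 1.25 µM, with log2 fold changes of -0.92 and -0.52 (edgeR adjusted p = 0.0413 and 0.0438). The combination was not called above vehicle for SYT17 or ZC3H6 (edgeR adjusted p = 0.178 and 0.724).

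Smaller rises among these 12 included GCKR, the glucokinase regulator, with 21.8, 21.5 and 27.6 CPM in the combination and 11.2, 12.8 and 8.37 CPM at 1.25 µM. SLPI, a secreted protease inhibitor of epithelia, had 16.5, 13.4 and 17.6 CPM in the combination and 6.45, 7.07 and 7.42 CPM at 1.25 µM. In both genes the lowest combination library was above the highest 1.25 µM library, again as the rule required. AGR2, a disulfide isomerase of mucus-making epithelium, had 100, 113 and 108 CPM in the combination and 38.9, 37.8 and 64.3 CPM at 1.25 µM (log2 fold change 1.19, edgeR adjusted p = 0.0289). AGR2 kept its call in 8 of 14 alternatives, losing it with no filter and without any library other than replicate 3 of 1.25 µM. ZC3H6 also held in 8 of 14 and lost its call without any 1 of the 6 libraries, and CAPN5 held in 12 of 14, losing it without replicate 1 of either arm. By mean CPM the largest rises included GPRC5A, HMGA1, AHNAK and AREG. AREG, a ligand of the EGF receptor, had 756, 804 and 830 CPM in the combination and 448, 515 and 607 CPM at 1.25 µM, a log2 fold change of 0.61 (SE 0.125, edgeR adjusted p = 0.0059). GPRC5A, HMGA1 and AHNAK had log2 fold changes of 0.40, 0.76 and 0.46, and each lost its call without replicates 2 or 3 of the combination or replicates 1 or 2 of 1.25 µM. GPRC5A and HMGA1 also lost it without replicate 1 of the combination, and HMGA1, which held in 6 of 14 alternatives, with DESeq2 size factors, with no filter and with only the 6 compared libraries in the fit. Against vehicle the combination had log2 fold changes of 0.54 for GPRC5A, 0.34 for AHNAK and 0.47 for AREG. For HMGA1 it was -0.19 (edgeR adjusted p = 0.621), so HMGA1 was not above vehicle.

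Mitochondrial DNA encodes 13 subunits of the respiratory chain and ATP synthase on a circle that is transcribed as long precursors, which are then cut into mRNAs, rRNAs and tRNAs. Transcripts of this genome made up 12.6%, 10.5% and 11.1% of counts in the combination, against 21.8%, 19.4% and 12.5% at 1.25 µM. The means were 11.4% ± 1.08 in the combination and 17.9% ± 4.83 at 1.25 µM (SD, n = 3 each), and replicate 3 of 1.25 µM lay just below the highest combination library. The difference of -6.48 percentage points had a two-sided exact permutation p of 0.2, where 3 libraries against 3 cannot go below 0.1. It was -9.18 points without replicate 3 of 1.25 µM and -4.53 points without replicate 1. For the mRNAs alone the arms did not overlap (difference -6.50 points, exact permutation p = 0.1). The 10 µM arm averaged 9.87% and vehicle 11%, so the 1.25 µM arm was the high one of the 4 by its mean.

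Of the 13 mRNAs 6 fell and none rose, where 6.57% of all genes fell and 5.06% rose. The group's median log2 fold change was -0.80, and 5 of the 6 were the 5 largest falls in mean CPM among called genes. In the combination none of the 13 was called against vehicle (median log2 fold change -0.45). At 1.25 µM against vehicle 7 rose and 0 fell (median 0.85), where 9.98% of all genes rose. MT-CO1 and MT-ND4, with log2 fold changes of -0.76 and -0.67, were not called (edgeR adjusted p = 0.054 and 0.101). MT-CYB, the cytochrome b of complex III, had 5435, 4548 and 4947 CPM in the combination and 17979, 15933 and 9426 CPM at 1.25 µM, a log2 fold change of -1.54 (SE 0.296, edgeR adjusted p = 0.00556). MT-ATP6, a membrane subunit of ATP synthase, had a log2 fold change of -1.34 (edgeR adjusted p = 0.00396). Both genes were lower in every combination library and lost their call in 1 of 12 alternatives, with no filter on low counts (edgeR adjusted p = 0.0608 for MT-CYB and 0.0594 for MT-ATP6). MT-ND2, MT-ATP8, MT-CO3 and MT-ND1, with log2 fold changes of -1.25, -1.24, -1.24 and -1.08, each lost their call with no filter on low counts and without replicates 2 or 3 of the combination or replicates 1 or 2 of 1.25 µM, and MT-ATP8 and MT-ND1 also without replicate 1 of the combination. The group's count was 0 falls with no filter, 12 falls without replicate 3 of 1.25 µM, 4 without replicate 1 of the combination and 2 without any other single library. It was 9 by DESeq2, 9 with only the 6 compared libraries in the fit and 10 with the replicate block.

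The make-up of the mitochondrial mRNA pool was steadier than its size. MT-CYB was 5.02%, 5.04% and 5.27% of mitochondrial mRNA counts in the combination and 7.76%, 7.99% and 7.82% at 1.25 µM. Replicate 3 of 1.25 µM, which stood apart in the size of the pool, was with its arm in this share. MT-ATP6 averaged 5.12% ± 0.046 in the combination and 6.89% ± 0.207 at 1.25 µM, MT-CO3 6.66% ± 0.028 and 8.35% ± 0.151, and MT-ND2 7.11% ± 0.333 and 8.91% ± 0.316 (SD, n = 3 each). In the other direction, MT-CO1 averaged 31.1% ± 0.422 in the combination and 28% ± 0.418 at 1.25 µM, MT-ND4 18.1% ± 0.221 and 15.3% ± 0.289, and MT-ND5 5.54% ± 0.106 and 4.25% ± 0.108 (SD, n = 3 each). MT-CYB lies downstream of MT-ND5 on the same strand, and the ratio of their counts was 0.923 ± 0.042 in the combination and 1.85 ± 0.059 at 1.25 µM. Each of these shares and this ratio had arms that did not overlap and a two-sided exact permutation p of 0.1, the smallest this design allows. Over the 13 mRNAs, 5 shares were lower and 6 higher with no overlap, and MT-ATP8 and MT-ND3 overlapped. The shares are parts of 1 pool, so lower shares of some mRNAs go with higher shares of others. A higher share was not a higher level, since the highest log2 fold change of the 13 was -0.41, for MT-ND6. At 10 µM sorafenib the ratio averaged 1.37 and in vehicle 1.79.

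**Figure D4:**
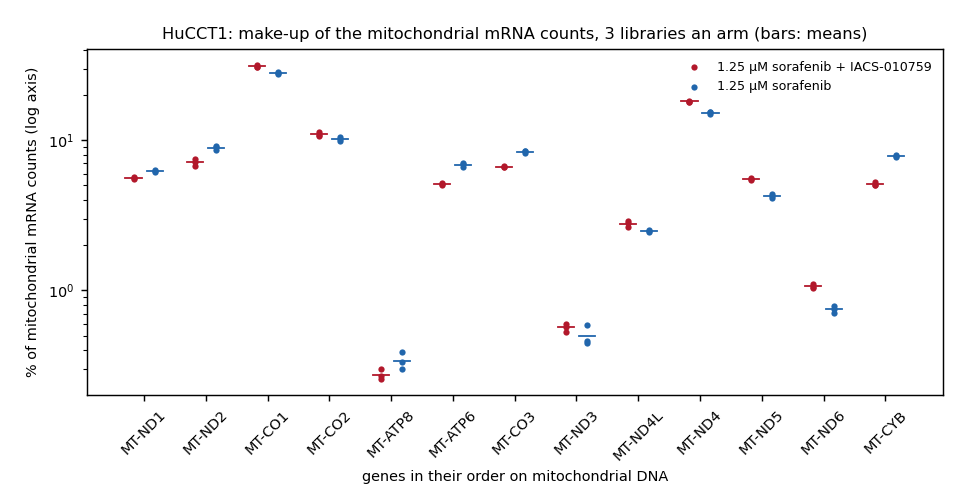
Share of each of the 13 mRNAs in the mitochondrial mRNA counts of a library, in percent, with 1 point per library and the combination left of 1.25 µM sorafenib for each gene. MT-CYB averages 5.11% in the combination and 7.86% at 1.25 µM, while MT-CO1 averages 31.1% and 28% and MT-ND4 18.1% and 15.3% in the same order.

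Few nuclear genes for the respiratory chain were called in the main fit, where 11.6% of all tested genes were called. Of 37 tested complex I subunits, the target of IACS-010759, 1 rose and 1 fell, neither under all alternatives, and without replicate 3 of 1.25 µM 1 rose and 6 fell. None of 25 subunits of complexes II to IV or 17 subunits of ATP synthase was called by edgeR or DESeq2, and at an unadjusted edgeR p under 0.05 1 of the 25 was higher and, among the 17, 1 higher and 2 lower. Without replicate 3 of 1.25 µM 4 rose and 4 fell among the 25, and 2 rose and 4 fell among the 17. In that fit 3224 of 20365 tested genes were called. Of 77 mitochondrial ribosomal proteins 12 fell and 1 rose (median log2 fold change -0.16), but the median was 0.03 with 0 falls when scaled by library size alone. That count was 0 to 2 without any library other than replicate 3 of 1.25 µM and 20 without it. Among 30 genes of mitochondrial transcription, replication and RNA processing 10 fell, 3 to 4 without any library other than replicate 3 of 1.25 µM, and 3 under library size alone. PNPT1, the mitochondrial RNA exonuclease that clears double-stranded mitochondrial RNA and is also interferon-induced, had 40.9, 41.9 and 40.6 CPM in the combination and 112, 114 and 116 CPM at 1.25 µM, a log2 fold change of -1.47 (SE 0.115, edgeR adjusted p = 7.98e-07). Its replicates were within a few CPM of each other in both arms. TWNK, the helicase of mitochondrial DNA, fell by 0.66, and FASTKD3, an RNA-binding protein of mitochondria, by 0.68. PPRC1, a coactivator of mitochondrial biogenesis, had 53.1, 52.4 and 53.7 CPM in the combination and 98, 93.5 and 90.4 CPM at 1.25 µM, a log2 fold change of -0.83 (SE 0.0948, edgeR adjusted p = 4.33e-05), while PPARA, a nuclear receptor of fat oxidation, rose by 0.60.

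Loss of respiration is known to raise the integrated stress response, in which ATF4 turns on amino acid synthesis and transport. In HuCCT1 none of the 26 tested genes of this response rose in the combination and 6 fell, where 5.06% of all genes rose and 6.57% fell. The count was 4 or 5 falls when any library was left out. CHAC1, which degrades glutathione and is an ATF4 target, had 16.4, 18.8 and 18.2 CPM in the combination and 49.8, 47.8 and 44.9 CPM at 1.25 µM, a log2 fold change of -1.42 (SE 0.149, edgeR adjusted p = 1.56e-05). ATF4 itself had 577, 540 and 547 CPM in the combination and 958, 887 and 704 CPM at 1.25 µM, a log2 fold change of -0.61 (SE 0.136, edgeR adjusted p = 0.00917), and lost its call without replicate 1 of 1.25 µM. The combination libraries were the lowest for both genes. GPT2 and ALDH18A1, enzymes of alanine and proline synthesis, fell by 0.73 and 0.66. DDIT3, TRIB3 and ASNS had log2 fold changes of -0.24, -0.30 and -0.93 and were not called. Among 17 amino acid transporters 4 fell and 1 rose, with 2 falls and no rise without any library other than replicate 3 of 1.25 µM. SLC7A5, the large neutral amino acid transporter, had 99.9, 111 and 110 CPM in the combination and 174, 177 and 180 CPM at 1.25 µM, a log2 fold change of -0.73 (SE 0.102, edgeR adjusted p = 0.000312), and the glutamate and aspartate transporter SLC1A3 fell by 0.87. None of the 18 tested genes of the ER unfolded protein response was called by edgeR (1 was higher and 1 lower at an unadjusted p under 0.05), and DESeq2 called 1 fall.

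Few central carbon genes were called. Of 23 tested glycolysis and lactate export genes 2 rose, of 24 genes of pyruvate entry and the TCA cycle 2 rose, and none fell in either group by edgeR, where 5.06% of all genes rose and 6.57% fell. Without replicate 3 of 1.25 µM 4 and 6 rose, and without any other library 0 or 1. PDK4, a kinase that switches off pyruvate dehydrogenase, had 1.58, 1.54 and 1.69 CPM in the combination and 0.188, 0.276 and 0.899 CPM at 1.25 µM. It rose with a log2 fold change of 1.83 (SE 0.509, edgeR adjusted p = 0.0286) and lost its call without any library other than replicate 3 of 1.25 µM. LDHA and the glucose transporter SLC2A1 had log2 fold changes of 0.16 and 0.21 and were not called. Of 20 hypoxia genes outside glycolysis 5 rose and none fell (median log2 fold change 0.26), with 2 or 3 rises without any library other than replicate 3 of 1.25 µM. BNIP3L, a receptor for the removal of mitochondria, had 118, 130 and 115 CPM in the combination and 82.5, 81.6 and 84.3 CPM at 1.25 µM, a log2 fold change of 0.54 (SE 0.0891, edgeR adjusted p = 0.00114), and the MYC antagonist MXI1 rose by 0.62. SLC25A13, the mitochondrial aspartate and glutamate carrier, fell by 0.66. ACSS2, which makes acetyl-CoA from acetate, rose by 0.55. Of 25 cholesterol genes 2 fell, neither under all alternatives, and of 21 NRF2 genes 5 rose, among them GCLC, the first enzyme of glutathione synthesis, with 80.7, 78.6 and 76.8 CPM in the combination and 39.6, 44.3 and 52.2 CPM at 1.25 µM. The NRF2 count was 3 or 4 without any library other than replicate 3 of 1.25 µM.

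A part of the DNA replication genes fell in the combination, and no mitosis gene was called, where 5.06% of all genes rose and 6.57% fell. Of 39 tested replication and nucleotide supply genes 17 fell and none rose (median log2 fold change -0.31). By library size alone 7 fell, and 7 to 10 fell without any library other than replicate 3 of 1.25 µM. MCM5, a subunit of the replicative helicase, had 71.0, 79.0 and 69.6 CPM in the combination and 136, 128 and 131 CPM at 1.25 µM, a log2 fold change of -0.85 (SE 0.0912, edgeR adjusted p = 1.99e-05). UHRF1, which keeps DNA methylation through replication, had 63.9, 63.7 and 63.0 CPM in the combination and 136, 140 and 113 CPM at 1.25 µM, a log2 fold change of -1.03 (SE 0.192, edgeR adjusted p = 0.00364). Against vehicle 28 of the 39 rose and 0 fell in the combination (median log2 fold change 0.66), where 9.94% of all genes rose, and 37 rose and 0 fell at 1.25 µM (median 0.94), where 9.98% rose. MCM5 and UHRF1 lay nearer to vehicle, which averaged 63.6 CPM for MCM5 and 52.4 CPM for UHRF1. Against vehicle, MCM5 had a log2 fold change of 0.20 in the combination (edgeR adjusted p = 0.131) and of 1.05 at 1.25 µM (edgeR adjusted p = 8.28e-06). MCM3, MCM7, POLE and E2F1, the factor that drives these genes, fell by 0.59, 0.53, 0.70 and 0.49. None of 27 mitosis genes was called by edgeR, where 4 were higher and 0 lower at an unadjusted p under 0.05, and DESeq2 called 1 rise. Their median was 0.07, and by library size alone 4 rose. Of 33 tested histone genes 7 fell, 2 or 3 without any library other than replicate 3 of 1.25 µM, and their close copies make single values uncertain. CDKN2B, an inhibitor of CDK4 and CDK6, rose, with 148, 138 and 140 CPM in the combination and 90.9, 92.2 and 88.1 CPM at 1.25 µM (log2 fold change 0.65, SE 0.0997, edgeR adjusted p = 0.000685), as did CDKN1C at 1.27. CDKN1A, CCND1 and MYC had log2 fold changes of -0.07, -0.14 and -0.01 and were not called.

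Other epithelial and stress genes gave single changes, where 5.06% of all genes rose and 6.57% fell. Of 18 p53 targets 4 rose and 1 fell, with 1 rise and 1 fall without replicate 2 of 1.25 µM. The nuclease AEN fell to 15.1, 16.3 and 16.9 CPM in the combination, against 34.8, 36.4 and 35.5 CPM at 1.25 µM, and TP53INP1 rose by 0.90. KLF4, an epithelial transcription factor, had 27.7, 23.7 and 24.8 CPM in the combination and 61.3, 68.6 and 59.6 CPM at 1.25 µM. The arms of AEN and KLF4 did not overlap. CLDN2, a tight junction protein that forms a cation pore, fell by 2.27, and MUC4, a membrane mucin, by 0.73. Of 80 cytosolic ribosomal proteins only RPS29 was called, with a rise of 0.78, but without replicate 3 of 1.25 µM 6 rose and 3 fell and by library size alone 9 rose. None of 31 proteasome subunits was called by edgeR, where 1 was higher and 9 lower at an unadjusted p under 0.05, and DESeq2 called 2 falls. Of 17 MAPK output genes 3 rose and 1 fell, none under all alternatives. In bulk libraries a lower level in each cell and fewer cells making the RNA cannot be told apart.

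The same addition was measured in OCUG-1, and the difference between the lines was tested as an interaction in 1 fit of 24 libraries. The effect differed for 8895 of 22944 genes (38.8%), with 4258 (18.6%) lower and 4637 (20.2%) higher in HuCCT1. For RSAD2 the log2 fold change was -3.93 in HuCCT1 and 2.97 in OCUG-1, where the libraries held 6.62, 3.93 and 5.18 CPM in the combination and 0.639, 0.687 and 0.638 CPM at 1.25 µM. Its direction was opposite in the lines, and the difference was -6.91 (SE 0.437, edgeR adjusted p = 6.96e-12). For MX1 it was -2.80 in HuCCT1 and 0.77 in OCUG-1 (difference -3.58, SE 0.308, edgeR adjusted p = 5.74e-09). The OCUG-1 libraries held 34.9, 29.9 and 32.3 CPM of MX1 in the combination and 17.6, 19.1 and 20.1 CPM at 1.25 µM, all below the HuCCT1 libraries. IFI44L fell in both lines, with log2 fold changes of -3.05 in HuCCT1 and -2.66 in OCUG-1, and its difference of -0.39 was not called (edgeR adjusted p = 0.578). Of the 12 largest HuCCT1 falls the effect differed for 10, the others being IFI44L and IFITM1, and of the 12 largest rises for 8. Such genes were chosen by their HuCCT1 effect, which is 1 side of the difference, so the choice itself favoured a difference. CXCL10, 1 of the 10, lost its call without OCUG-1 combination replicate 1 or 3 or OCUG-1 1.25 µM replicate 2 (edgeR adjusted p = 0.18, 0.0702 and 0.0598), and MMP1, 1 of the 8, without HuCCT1 1.25 µM replicate 3 or replicate 1 of either OCUG-1 arm. Of 49 antiviral effectors 9 rose and 20 fell in OCUG-1, where 25.1% of all genes rose and 28.2% fell, and the difference was negative for 32 and positive for 3.

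The effect also differed between the lines for many members of other groups. Over all 22944 genes the difference was positive for 20.2% and negative for 18.6%, and in OCUG-1 25.1% rose and 28.2% fell. Of the stress response genes tested in this fit, 21 of 28 rose and 3 fell in OCUG-1, with a median log2 fold change of 0.90, and the difference was negative for 20 and positive for 1. CHAC1 had log2 fold changes of -1.42 in HuCCT1 and 1.77 in OCUG-1 (difference -3.18, SE 0.202, edgeR adjusted p = 1.4e-12). All 27 mitosis genes fell in OCUG-1 (median -1.80), and the difference was positive for all 27. It was positive for 20 of 25 cholesterol genes, 12 of 13 fatty acid synthesis genes, 13 of 16 complement genes and 15 of 21 NRF2 genes, and negative for 0, 0, 1 and 3 of them in that order. It was negative for 10 of 18 genes of the ER unfolded protein response and positive for 0. MCM5 fell in both lines, with log2 fold changes of -0.85 in HuCCT1 and -1.10 in OCUG-1, and its difference of 0.25 was not called (edgeR adjusted p = 0.138). Line and culture medium differ together, and their parts cannot be told apart.

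**Figure D5:**
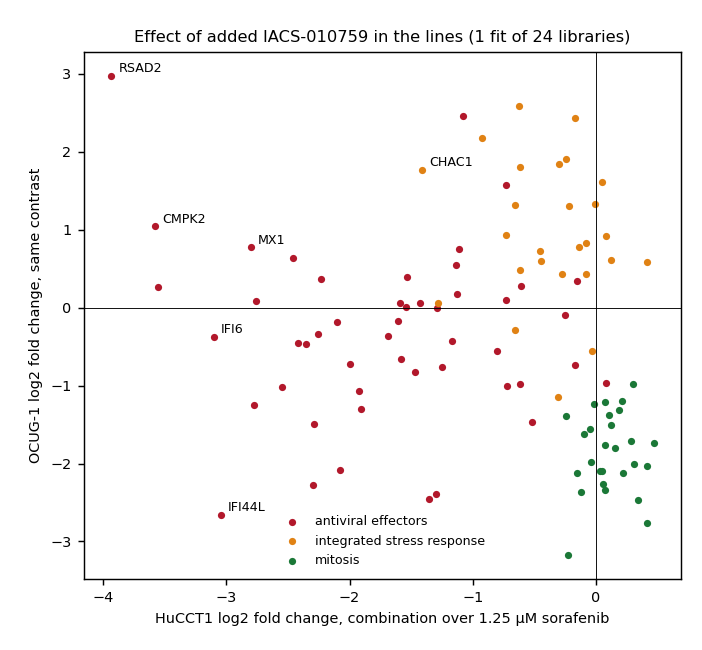
Log2 fold change of the combination over 1.25 µM sorafenib in HuCCT1 (horizontal axis) and OCUG-1 (vertical axis) from the 24-library fit, 1 point per gene, for antiviral effectors, stress response genes and mitosis genes. Antiviral effectors spread to the left with a HuCCT1 median of -1.58 and an OCUG-1 median of -0.37, stress response genes lie high in OCUG-1 with a median of 0.90, and mitosis genes lie low with a median of -1.80.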

How the data were processed

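RNA was sequenced from 24 libraries of 2 human biliary tract cancer cell lines, per the labels' protocols with TruSeq mRNA libraries and paired NovaSeq reads. The authors deposited raw counts by Ensembl gene ID, in 1 table per line and with no normalization. The submitters' processing notes name bcl2fastq, fastp 1.3.2, HISAT2 2.2.2, GRCh38, featureCounts of Subread 2.1.1, MultiQC 1.33, R 4.4.1 and DESeq2 1.42.1. Not given in the sources used here were the annotation release, the counting strand and how reads shared by several genes were treated. Of 78724 gene IDs, 61481 were in the gene name table and 57302 in GENCODE release 29, which gave coordinates.

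The 12 HuCCT1 libraries, 3 per arm with the arm taken from the labels, were fitted together with edgeR 4.0.16 (R 4.3.3, limma 3.58.1): TMM scaling, filterByExpr with a minimum count of 10, robust quasi-likelihood F tests, two-sided, Benjamini-Hochberg adjustment over all 19576 tested genes and calls at an adjusted p under 0.05. The biological coefficient of variation was 0.137. The combination was contrasted with 1.25 µM sorafenib, and the interaction with OCUG-1 was tested in a 24-library fit. CPM are scaled by the TMM factors, and standard errors come from the F statistics. Shares of mitochondrial counts were compared with exact permutation tests over libraries. For genes with many counts, counting error is small at totals of 18238834 or more per HuCCT1 library beside the spread between replicates. It is not small for genes with few counts, such as IFNL1, HERC5 and PDK4. The steps were tested on simulated data. DESeq2 1.42.0 was an alternative, and the others were scaling, the filter, the libraries fitted, a replicate block and each library left out.

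The members, the 57 gene lists and the tests were chosen with earlier results of these data known. Rank picked the 12 genes with the highest and the 12 with the lowest log2 fold change among those called, protein-coding and named, averaging 10 CPM or more in the higher arm, with arms that do not overlap, and also the 5 called genes with the largest rise and the 5 with the largest fall in mean CPM. For the difference between lines the 5 largest each way were taken without the last condition on arms. Other genes named are members of the lists, and mostly those that kept their call. A few genes that these rules name are not reported here.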

Additional observations from a re-analysis of the deposited data

Results flagged for a closer look

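The effect of added IACS-010759 differed between HuCCT1 and OCUG-1 for 8895 genes by the interaction term of the 24-library edgeR fit at an adjusted p under 0.05, and the genes below were named by rank. Those picked for large HuCCT1 effects were chosen on 1 side of the difference, which favours a difference. Differences are HuCCT1 minus OCUG-1 log2 fold changes. Among the largest HuCCT1 falls the difference was -6.91 for RSAD2, -4.62 for CMPK2, -3.82 for MX2, -3.58 for MX1, -2.84 for OASL, -2.80 for USP18, -2.73 for IFI6, -2.56 for ISG15, -2.50 for CXCL10 and -1.52 for IFIT1. For CXCL10 the call was lost without OCUG-1 combination replicate 1 (-2.03), OCUG-1 combination replicate 3 (-2.46) or OCUG-1 1.25 µM replicate 2 (-2.26). IFIT1 fell in both lines, with a log2 fold change of -2.78 in HuCCT1 and -1.25 in OCUG-1 (edgeR adjusted p of the difference 5.74e-05).

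Among the largest HuCCT1 rises the difference was 4.08 for CDK15, 4.0 for ZNF488, 2.94 for SYT17, 2.70 for GRB7, 2.51 for CAPN5, 2.13 for ZC3H6 and 1.79 for SLPI, each of which fell in OCUG-1. MMP1 rose in both lines, by 1.42 in HuCCT1 and 2.21 in OCUG-1, a difference of -0.80 (edgeR adjusted p = 0.0172). That difference was -0.58 without HuCCT1 1.25 µM replicate 3 (edgeR adjusted p = 0.0722), -0.58 without OCUG-1 combination replicate 1 (0.0904) and -0.69 without OCUG-1 1.25 µM replicate 1 (0.0512). In OCUG-1 its libraries held 3787, 2751 and 2586 CPM in the combination and 531, 678 and 760 CPM at 1.25 µM, so the gene was far higher there in both arms.

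Of the largest differences by rank, RSAD2 is given above. VEGFC, TFPI2, DAPP1, TUBB4A and PLCXD3 were also among them and are given no value, since an arm held no count. HSPA6, an inducible heat-shock protein, had a log2 fold change of 0.87 in HuCCT1 and 8.08 in OCUG-1, a difference of -7.21, with 340, 323 and 166 CPM in the OCUG-1 combination and 1.09, 0.778 and 1.28 CPM at 1.25 µM. NEURL1B, with a log2 fold change of 0.64 in HuCCT1, had a difference of 7.21 and was held by 1 of the 3 OCUG-1 combination libraries, so its size depends on the prior count. FGA, the fibrinogen alpha chain, with 0.43 in HuCCT1, had a difference of 5.88, with 0.207, 0.384 and 0.299 CPM in the OCUG-1 combination and 10.4, 15.2 and 14.7 CPM at 1.25 µM. SLC28A3, a nucleoside transporter, with 0.58 in HuCCT1, had a difference of 5.17, with 13.5, 13.6 and 10.4 CPM in the OCUG-1 combination and 370, 281 and 255 CPM at 1.25 µM.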

How the results depend on the processing

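The count of 2276 called genes was 3474 with only the 6 compared libraries in the fit, 2852 by DESeq2, 2257 by TMM without mitochondrial DNA genes and 2270 with DESeq2 size factors. Leaving out 1 library gave 877 to 3224, the highest without replicate 3 of 1.25 µM sorafenib. Library size alone called 3156 genes, 1545 of them shared with the 2276, and library size alone without mitochondrial DNA genes, added after seeing the data, called 2420 with 65.2% rises. No direction reversed among the 278 genes followed, and 150 of them kept their call under all alternatives. Leaving out 1 library ended 17 to 106 of their calls, library size alone 65 and no filter 41. The difference between lines gave 8026 to 9221 calls under the alternatives, beside 8895.

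The labels do not say that replicate numbers pair libraries. The correlation of same-number libraries across the 2 arms, after removal of arm means, was 0.0963, -0.0725 and -0.0492, and 2 of 6 libraries correlated best with their own number. With the replicate block 2838 genes were called in HuCCT1 and 8843 for the difference between lines. The 3 libraries per arm and the spread of the 1.25 µM arm limit what could be called, and the genes IFNL1, IFNL2, IFNL3 and IFNB1, at 31 counts or fewer in each of the 6 libraries, are limited by depth.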
